A study of Mus musculus with 10 samples.

Results

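The genes described here are the 3 fringe genes Rfng, Lfng and Mfng and the genes of the enzymes that start O-linked sugars on Notch, Pofut1 and Poglut1, in portal tracts of the 1-week-old mouse liver. They are 5 of the 22180 genes measured, taken by name. Each is read by 1 probe set with a single gene symbol: 17273316 for Rfng on chromosome 11, 17444106 for Lfng on chromosome 5, 17319050 for Mfng on chromosome 15, 17377910 for Pofut1 on chromosome 2 and 17330391 for Poglut1 on chromosome 16. All 5 were measured on all 10 arrays, and no filter removed any of them.

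Notch receptors carry sugars on the EGF-like repeats of their extracellular part. POFUT1 adds a fucose and POGLUT1 a glucose to these repeats in the endoplasmic reticulum, and the fringe proteins Radical, Lunatic and Manic fringe then add N-acetylglucosamine to the fucose in the Golgi. Elongated fucose changes how well a receptor responds to Delta-like against Jagged ligands, and in liver, Jagged1 from the portal mesenchyme acts on Notch in cells that form the bile ducts.

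The study compared portal tracts cut by laser from frozen liver, with 12 to 20 tracts per replicate, of 5 control and 5 Jag1+/-Rfng+/- samples. The controls are labelled C57Bl/6J. The Jag1+/-Rfng+/- mice are heterozygous at Jag1, the gene of the ligand Jagged1, and at Rfng, and their strain and the kind of either allele are not given. Whether each sample is a separate animal is not given either, so p-values cover only the variation among these 10 samples, which may be technical. The labels give no treatment, and both groups are 1 week old.

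Array medians lay between 3.22 and 3.30 log2. Signals of 1105 olfactory receptor genes, which liver is not known to use, had a 95th percentile of 3.21, and a reading below that is called background here. Jag1+/-Rfng+/- replicate 5, whose sample name carries an unexplained suffix, stood apart: it correlated with the other arrays at 0.956 to 0.963, against 0.969 to 0.987 among the other 9. Its erythroid markers averaged 7.68, against 4.53 to 5.65 in controls and 4.87 to 5.36 on the other Jag1+/-Rfng+/- arrays. Cell types of a portal tract showed most of their markers above background by the mean over arrays: 9 of 11 measured biliary markers (not Cftr and Elf3), 11 of 11 portal fibroblast, 16 of 16 endothelial and 7 of 8 smooth muscle markers (not Synpo2). So did 11 of 11 hepatocyte markers. In captures of mixed cells, fewer cells of a type and less RNA per cell cannot be told apart. The portal fibroblast markers averaged 5.92 to 6.95 in controls and 5.03 to 6.52 in Jag1+/-Rfng+/-, with 9 of 11 lower. The biliary markers averaged 4.93 to 5.83 and 4.45 to 5.06, with 9 of 11 lower. The endothelial markers averaged 5.88 to 6.27 and 5.85 to 6.38, with 8 of 16 lower. The smooth muscle markers averaged 4.45 to 5.64 and 4.37 to 5.97, with 6 of 8 lower. Among blood cells, the lymphocyte markers averaged 3.95 to 4.98 and 3.61 to 4.30, with 9 of 10 lower. The neutrophil and progenitor markers averaged 6.42 to 7.14 and 6.98 to 7.62, with 8 of 11 higher, and the macrophage markers 6.50 to 7.08 and 6.44 to 7.59, with 10 of 11 higher. These shifts stand beside all results that follow, and their part in them was not tested except through the covariate fits given below. The portal fibroblast list itself differed between the groups (-0.83 log2, exact permutation p = 0.0476). So did the biliary list (-0.52 log2, exact permutation p = 0.0476), which was not used as a covariate. A fit with the portal fibroblast list as a covariate therefore cannot tell cell content from genotype.

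Rfng, the mutated fringe gene, was the 1 member whose signal fell in the exact test of each gene by itself. Control replicates 1 to 5 read 4.61, 4.76, 4.72, 4.88 and 5.13 log2, and Jag1+/-Rfng+/- replicates 1 to 5 read 4.19, 4.29, 4.57, 4.26 and 4.48. The highest Jag1+/-Rfng+/- array lay just under the lowest control, so the groups did not overlap, which held for 1.38% of all genes (0.766% with Jag1+/-Rfng+/- lower). The mean signal stood at 72.7% of control (limma 95% interval 60.6% to 87.3%), a log2 difference of -0.46 ± 0.12 (SE). A signal of 50%, the share of 1 of 2 copies, lies outside this interval. Whether the altered allele still gives RNA that the probe set reads is not given, and the scale compresses the folds of dim genes. The part of either was not tested. The exact permutation p was 0.00794 (two-sided, the smallest that 5 against 5 arrays allow), and 6.56% of all genes had an exact p under 0.05. Adjusted over all genes tested, Rfng did not pass (limma adjusted p = 0.416), and 0.00902% of genes did.

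With each array left out in turn, the Rfng difference ran from -0.51 to -0.38 log2, with 10 of 10 exact permutation p under 0.05 (0.00794 to 0.0159). Groups that do not overlap stay apart when any 1 array is dropped. The direction and these p under 0.05 were therefore fixed by the full result, and only the size could vary. With the portal fibroblast markers as a covariate the Rfng difference was -0.55 (limma unadjusted p = 0.00558, adjusted p = 0.585). Among the 7 arrays that share the only sample-name number found in both groups, a possible batch of unstated meaning, it was -0.38 and did not pass (exact permutation p = 0.0571, with 0.0286 the smallest possible). The groups did not overlap there either, which the full result had fixed (limma unadjusted p = 0.0146, adjusted p = 0.823). Without replicate 5 these arrays gave -0.41 (exact permutation p = 0.1, the smallest possible; limma unadjusted p = 0.0163, adjusted p = 0.867).

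**Figure D1:**
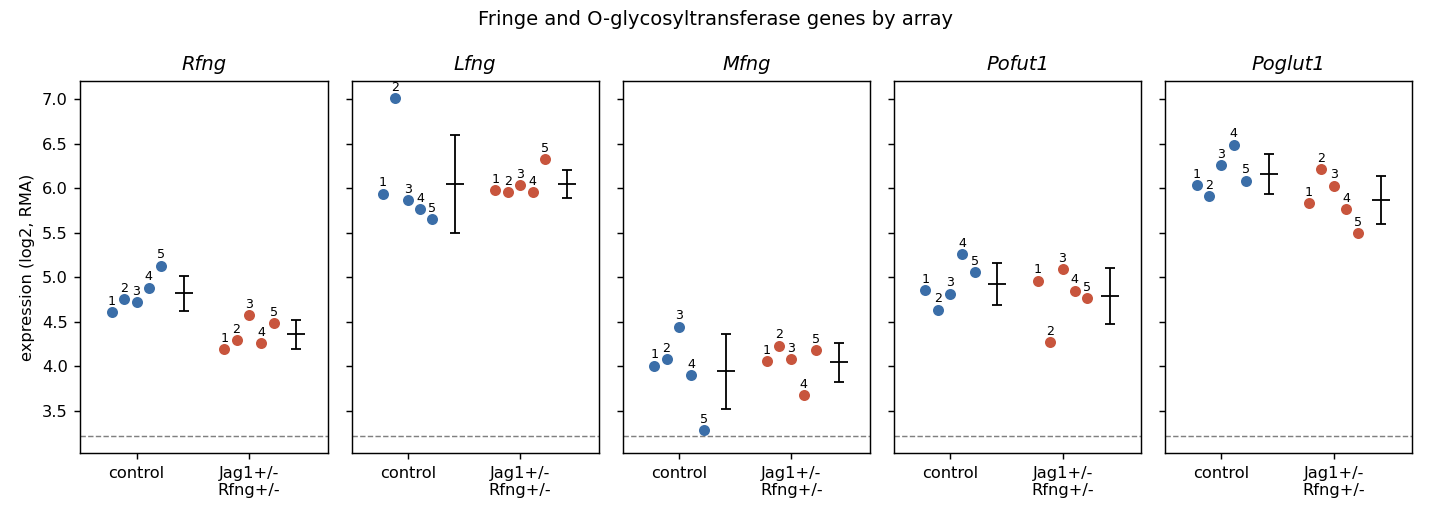
Expression of the 5 genes on each array (y axis, log2 after RMA; x axis, group; numbers are replicates), with the group mean and SD beside the points and a dashed line at the 95th percentile of olfactory receptor genes, 3.21. All Rfng points of Jag1+/-Rfng+/- lie below all control points, Lfng has 1 high control (replicate 2, 7.01), and in the other 3 genes the groups overlap.

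Lfng, the gene of Lunatic fringe, had the same mean in both groups, but this equality rested on 1 control array. Controls read 5.94, 7.01, 5.86, 5.76 and 5.65, and Jag1+/-Rfng+/- arrays 5.97, 5.96, 6.04, 5.95 and 6.33. Control replicate 2 stood more than 1 log2 unit above every other control and above all Jag1+/-Rfng+/- arrays, while the other 4 controls all lay below all 5 Jag1+/-Rfng+/- arrays. Over the 10 arrays the means were 6.05 ± 0.55 and 6.05 ± 0.16 (SD, n = 5 each), with a difference of 0.00 log2 (limma 95% interval -0.48 to 0.49, adjusted p = 0.998; exact permutation p = 0.992).

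Without control replicate 2 the Lfng difference became 0.25 log2, 1.19-fold higher, with groups that did not overlap (exact permutation p = 0.00794, the smallest that 4 against 5 arrays allow; limma unadjusted p = 0.0565, adjusted p = 0.764). Without both control replicate 2 and Jag1+/-Rfng+/- replicate 5, the highest of its group, it was 0.18 (exact permutation p = 0.0286, the smallest that 4 against 4 arrays allow), a choice made after these values were seen. Control replicate 2 was the only control above any Jag1+/-Rfng+/- array, so dropping it fixed the separation in advance, and the low exact p follows from the separation. Fewer arrays separate more easily, and the share of all genes that separate in either setting was not counted. Leaving out any other single array gave -0.09 to 0.03. With all arrays, a rise of up to 1.41-fold and a fall to 71.5% of control both lay within the interval, so a change in Lfng as large as that of Rfng could not be told from none.

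Lfng is a known Notch target in the somite clock, and the 250 bases before its start are shown because they hold the core letters read by RBPJ, the DNA-binding partner of Notch. They lie at chr5:140607091-140607340 (GRCm38.p6, plus strand, RefSeq), and capitals mark TGGGAA or its reverse complement.
Lfng: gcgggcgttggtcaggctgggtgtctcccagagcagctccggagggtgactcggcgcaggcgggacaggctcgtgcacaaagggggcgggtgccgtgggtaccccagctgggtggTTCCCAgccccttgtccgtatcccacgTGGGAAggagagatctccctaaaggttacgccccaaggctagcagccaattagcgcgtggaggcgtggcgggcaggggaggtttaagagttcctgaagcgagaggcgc
The 2 matches begin 135 and 108 bases before the start. The nearer one is part of GTGGGAA. A match to TGGGAA on either strand was found in 21.6% of 32851 such windows of all genes, and one to GTGGGAA, which contains it, in 5.42%. The window of Poglut1 had 1 match to TGGGAA and that of Pofut1 had 0. The window listed for Rfng, which begins inside the annotated extent of the gene, had 0, and no window was at hand for Mfng. A match of these letters is a description and not a site.

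**Figure D2:**
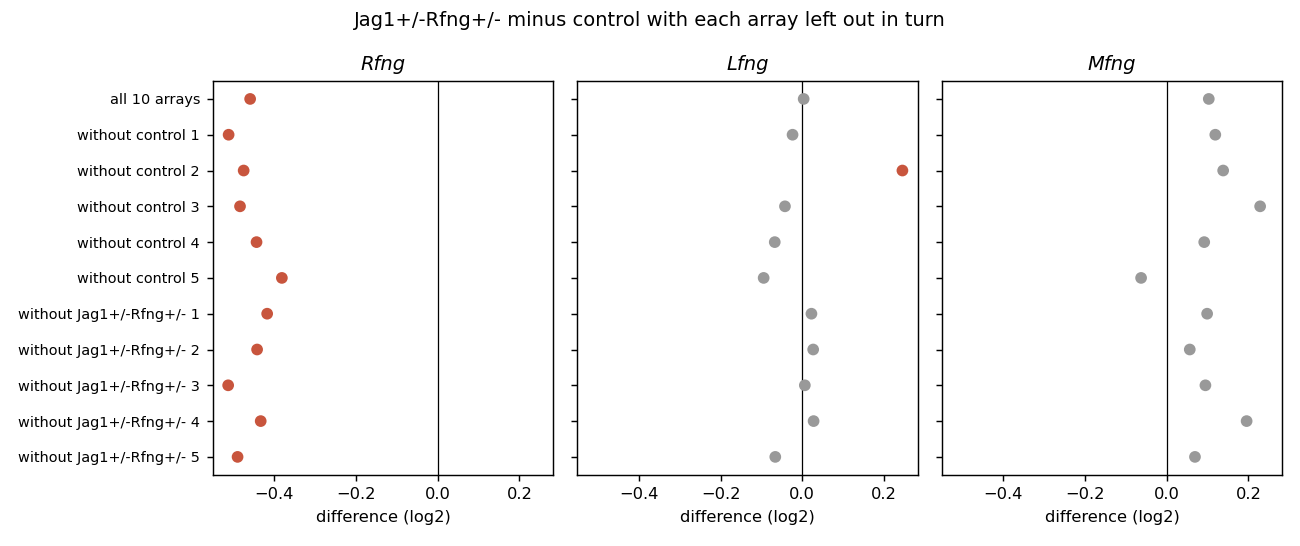
Difference between the groups (x axis, log2, Jag1+/-Rfng+/- minus control) for the 3 fringe genes over all 10 arrays and with each array left out in turn (y axis); red points have an exact permutation p under 0.05 and grey points do not. Rfng stays between -0.51 and -0.38, Lfng reaches 0.25 only without control replicate 2, and Mfng runs from -0.06 to 0.23.

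Mfng, the gene of Manic fringe, had the lowest mean signal of the 3 fringes, above background on all 10 arrays, and overlapped between the groups. Controls read 4.00, 4.08, 4.44, 3.90 and 3.28, and Jag1+/-Rfng+/- arrays 4.06, 4.23, 4.08, 3.67 and 4.18. Control replicate 5 was the lowest of all and only just above the background threshold of 3.21. The mean difference was 0.10 log2 (limma 95% interval -0.31 to 0.52, adjusted p = 0.941; exact permutation p = 0.675), or 107% of control with an interval of 80.5% to 143%. Without control replicate 5 the difference turned to -0.06 (exact permutation p = 0.667), and among the 7 arrays with the shared number to -0.10 (exact permutation p = 0.629).

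The mean readings of the 3 fringe genes in controls were 6.05 for Lfng, 4.82 for Rfng and 3.94 for Mfng (log2 signal of different probe sets). Probe sets differ in brightness at equal RNA, so this is an order of signals and not of transcript abundance. All fringe readings lay above the background threshold. Levels of the members were not ordered across groups beyond Rfng, since for Lfng, Mfng, Pofut1 and Poglut1 neither the exact test nor the adjusted limma test separated the groups over all arrays.

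To ask whether another member moved differently from Rfng, the log2 value of Rfng was subtracted from that of each of the other 4 on the same array, and the groups were compared. Lfng minus Rfng was 1.23 ± 0.65 for control and 1.69 ± 0.15 for Jag1+/-Rfng+/- arrays (mean ± SD, n = 5 each). All 5 Jag1+/-Rfng+/- arrays lay above the control median, yet 0 lay above control replicate 2 at 2.26. The difference of 0.46 (95% interval -0.22 to 1.15) did not pass (exact permutation p = 0.167). It grew to 0.72 when control replicate 2 was left out (exact permutation p = 0.00794). Control replicate 2 was the only control above any Jag1+/-Rfng+/- array, so dropping it fixed the separation of the groups and the low exact p in advance. No other single array left out gave an exact permutation p under 0.05 for Lfng minus Rfng. Among the 7 arrays with the shared number the difference was 0.24 (exact permutation p = 0.514), and 0.18 without replicate 5 there (exact permutation p = 0.8).

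Mfng minus Rfng was -0.88 ± 0.60 for control and -0.32 ± 0.23 for Jag1+/-Rfng+/- arrays (mean ± SD, n = 5 each), a difference of 0.56 (95% interval -0.10 to 1.22, exact permutation p = 0.0556). Control replicate 5 at -1.85 widened the control range, and control replicate 3 at -0.28 overlapped the other group. Without control replicate 3 the difference was 0.71 and the groups separated (exact permutation p = 0.00794). Control replicate 3 was the only control above any Jag1+/-Rfng+/- array, so dropping it fixed the separation and the low exact p in advance. No other single array left out gave an exact permutation p under 0.05 for Mfng minus Rfng. The share of all genes that separate in this setting was not counted. Among the 7 arrays with the shared number the difference was 0.28 (exact permutation p = 0.286). Pofut1 minus Rfng differed by 0.32 (95% interval -0.06 to 0.71, exact permutation p = 0.0873) and Poglut1 minus Rfng by 0.17 (95% interval -0.27 to 0.62, exact permutation p = 0.405). Of these 4 differences, 0 passed 0.05 over all arrays, and none was adjusted for their number.

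These values share the Rfng reading, so each holds the difference of Rfng itself. In each of the 4, the mean of Jag1+/-Rfng+/- was higher relative to Rfng. A higher ratio to Rfng within an array shows unequal change and not a rise of the other gene. Among the other fringes, only Lfng without control replicate 2 separated the groups by its own signal in any of the leave-one-out tests. That separation was fixed by dropping the only control that overlapped the other group.

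**Figure D3:**
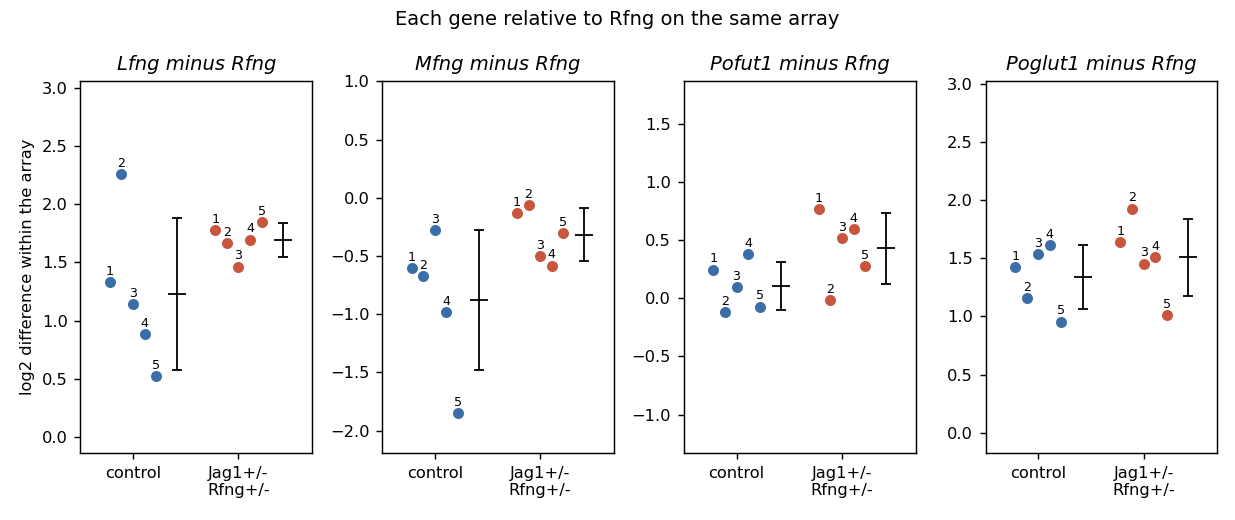
Log2 value of Lfng, Mfng, Pofut1 and Poglut1 minus that of Rfng on the same array (y axis) in both groups (x axis; numbers are replicates), with the mean and SD beside the points; each panel spans the same height. Lfng minus Rfng lies at 1.46 to 1.85 in Jag1+/-Rfng+/- and at 0.53 to 2.26 in controls.

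Pofut1, the protein O-fucosyltransferase gene on whose product all fringe action depends, overlapped between the groups. Controls read 4.85, 4.63, 4.81, 5.26 and 5.06, and Jag1+/-Rfng+/- arrays 4.96, 4.27, 5.09, 4.85 and 4.76. Jag1+/-Rfng+/- replicate 2 was the lowest of the 10, and the others of that group lay among the controls. The difference was -0.14 log2 (limma 95% interval -0.49 to 0.22, adjusted p = 0.896; exact permutation p = 0.476) and became -0.01 without that array (exact permutation p = 0.952). With the portal fibroblast covariate it was -0.36 (limma unadjusted p = 0.107, adjusted p = 0.765).

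Poglut1, the protein O-glucosyltransferase gene, read lower in Jag1+/-Rfng+/- but did not pass. Controls read 6.03, 5.91, 6.26, 6.49 and 6.08, and Jag1+/-Rfng+/- arrays 5.83, 6.22, 6.03, 5.77 and 5.50. The upper Jag1+/-Rfng+/- arrays, replicates 2 and 3, lay within the control range, and the other 3 below all controls. The mean was 81.9% of control (limma 95% interval 65.3% to 103%), a difference of -0.29 ± 0.15 log2 (SE) (limma adjusted p = 0.764; exact permutation p = 0.103). It was -0.37 without Jag1+/-Rfng+/- replicate 2 (exact permutation p = 0.0397) and -0.19 without the erythroid-rich replicate 5 (exact permutation p = 0.206).

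Of the 5 members, 0 passed limma's adjusted threshold, 3 read lower and 2 higher, and their median difference was -0.14 log2, against -0.01 over all genes. In the unadjusted limma fit 1 of the 5, Rfng, had p under 0.05, against 6.76% of all genes (3.79% in the lower direction).

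The other enzymes that build sugars on EGF repeats did not pass either, and most read lower. Of 10 measured, 8 read lower and 2 higher, 0 passed the adjusted threshold and 0 had an unadjusted limma p under 0.05; the median was -0.18 log2. Eogt, the enzyme that puts N-acetylglucosamine directly on EGF repeats, had the widest gap. Its controls read 5.80, 6.20, 6.38, 6.10 and 5.09 and its Jag1+/-Rfng+/- arrays 5.37, 5.94, 5.20, 5.41 and 5.16. Control replicate 5 was the lowest of all 10, so the groups overlapped in full, and the difference was -0.50 ± 0.23 log2 (SE; limma adjusted p = 0.738, exact permutation p = 0.119).

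The further O-glucosyltransferase genes Poglut2 and Poglut3 differed by 0.09 and -0.34 log2 (limma adjusted p = 0.959 and 0.779). The xylosyltransferase genes that lengthen O-glucose, Gxylt1 and Xxylt1, differed by -0.10 and -0.12. Gxylt2 read below background on all 10 arrays and Xxylt1 on 2. B4galt1, whose product adds galactose to the fringe-made disaccharide, read 6.30 ± 0.15 against 6.33 ± 0.18 (control against Jag1+/-Rfng+/-, mean ± SD, n = 5 each). Its interval, -0.22 to 0.28 log2, was among the narrower ones of the pathway. The sialyltransferase genes St3gal3, St3gal4 and St3gal6, whose products can cap such chains, differed by -0.26, -0.33 and -0.24. St3gal4 ran from 6.53 to 6.81 in controls and from 5.69 to 6.57 in Jag1+/-Rfng+/- (exact permutation p = 0.0317, limma adjusted p = 0.743). Its lowest reading was on replicate 5.

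The parallel pathway that puts fucose and then glucose on thrombospondin repeats, Pofut2 and B3glct, differed by -0.33 and -0.29 log2 (limma adjusted p = 0.789 and 0.826). Both genes read lower on average and both overlapped between the groups.

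Among genes that make and carry GDP-fucose, the donor of POFUT1, Slc35c1 had the lowest unadjusted p of the 6 measured. It encodes the main Golgi carrier of GDP-fucose. Controls read 5.50, 5.60, 5.47, 5.60 and 5.72, and Jag1+/-Rfng+/- arrays 5.60, 6.27, 6.00, 5.81 and 6.17. Of the Jag1+/-Rfng+/- arrays, 4 lay above every control and replicate 1 lay among them. The difference was 0.39 ± 0.13 log2 (SE), 1.31-fold higher (exact permutation p = 0.0238; limma unadjusted p = 0.0112), and did not pass adjusted over all genes (limma adjusted p = 0.597). It was 0.50 among the 7 arrays with the shared number (limma unadjusted p = 0.00599) and 0.34 without replicate 5 (limma unadjusted p = 0.0280). With the portal fibroblast covariate it was 0.38 (limma unadjusted p = 0.0587).

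In this group of 6 genes, 2 read higher and 4 lower. An unadjusted limma p under 0.05 was found for 1 of them, against 6.76% of all genes (2.98% in the higher direction). Slc35c2, a relative of that carrier which favours fucosylation of Notch, read 5.57 ± 0.26 and 5.52 ± 0.59 (SD, n = 5 each). The synthesis genes Gmds and Gfus differed by -0.08 and -0.16, and the salvage genes Fcsk and Fpgt by -0.01 and 0.08.

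Of 10 genes that make or carry the UDP-sugars used by fringe, POGLUT1 and the xylosyltransferases, 8 read lower and 2 higher, with 0 at an unadjusted limma p under 0.05. Slc35d2, related to the fly gene fringe connection and a carrier of UDP-N-acetylglucosamine, differed by -0.21 log2. Its Jag1+/-Rfng+/- replicate 5 read 4.29, against 5.63 to 5.93 on the others of the group. Slc35a3 and Slc35b4, further carriers, differed by -0.29 and -0.32, and the enzyme genes Gfpt1, Gnpnat1, Pgm3 and Uap1 by -0.11, -0.25, -0.27 and 0.11. Ugp2 and Uxs1, which make UDP-glucose and UDP-xylose, differed by -0.11 and -0.08. Slc35d1 differed by 0.06.

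Over these 28 genes together 22 read lower, where 51.5% of all genes did, with a median of -0.11 log2 against -0.01 over all genes. The count was 22 under quantile, median and cyclic loess scaling alike. It fell to 18 without replicate 5 and to 17 with the portal fibroblast markers as a covariate (median -0.06). Of the 28 genes, 1 (Slc35c1) had an unadjusted limma p under 0.05 in the fit without covariate, against 6.76% of all genes.

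**Figure D4:**
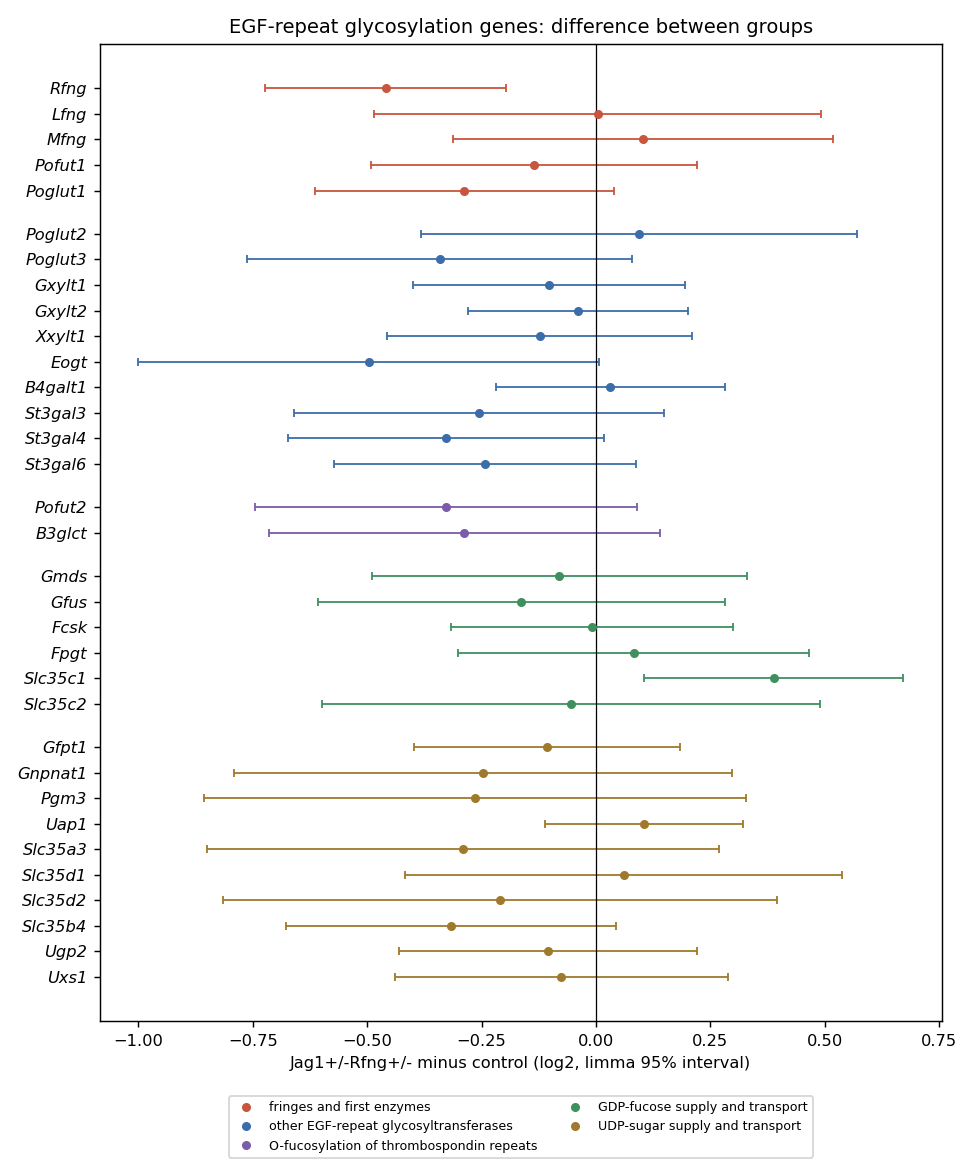
Difference between the groups (x axis, log2, Jag1+/-Rfng+/- minus control, with limma's 95% interval) for the 5 members and 28 other genes of EGF-repeat and thrombospondin-repeat glycosylation and sugar supply (y axis, coloured by role). The intervals of Rfng, from -0.72 to -0.20, and Slc35c1, from 0.11 to 0.67, leave out 0, and all others cross it.

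The substrates of these enzymes and the genes downstream were measured on the same arrays. All 9 genes of Notch receptors and ligands read lower on average, where 51.5% of all genes did. The ligand gene Dll3 (-0.01) read below background on all 10 arrays and Jag2 (-0.08) on 6, so their readings add little to that count. Of the 9, Jag1 and Dll1 had an unadjusted limma p under 0.05, against 3.79% of all genes in the lower direction. Jag1 is itself heterozygous in these mice, so it is not a gene like the others in this count. Among the receptors, Notch1, Notch2, Notch3 and Notch4 differed by -0.16, -0.10, -0.67 and -0.13 log2, and the ligand genes Jag1, Dll1 and Dll4 by -1.33, -0.40 and -0.39 (limma adjusted p = 0.559 to 0.921 over these 7). Of the Notch target genes, Hey1, Hey2 and Heyl differed by -0.75, -0.45 and -0.92 (limma adjusted p = 0.564 to 0.628), and Hes1 and Nrarp by -0.18 and -0.40. An unadjusted limma p under 0.05 was found for 3 of the 6 (Hey1, Hey2 and Heyl), against 3.79% of all genes in the lower direction. Hes5, the 1 target of 6 that read higher, differed by 0.05 (exact permutation p = 0.746). Hes5 and Hey2 each read above background on only 7 of the 10 arrays. With the portal fibroblast covariate, which itself differed between the groups, the median of the 6 target genes went from -0.43 to -0.01. Over all 24 alternatives this median ran from -0.59 to -0.01, and 1 of them was marked as moved.

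Of the genes beside Rfng in the reference order, 0 of 6 passed. Cbr2, Dcxr and Rac3 on one side differed by 0.19, -0.21 and 0.03 log2, and Gps1, Dus1l and Fasn on the other by -0.05, -0.13 and -0.00 (limma adjusted p = 0.810 to 1.000). Cbr2 read below background in both groups. In 6 of 6 the groups overlapped.

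The genes whose values ran most like each fringe within the groups were taken from 11931 genes with a mean above the 95th percentile of the olfactory receptor means, by Pearson r of values centred on the group means over 10 arrays. For Rfng they were Snx22 (0.93), Slc6a3 (0.93), Nxph3 (0.91), Whamm (0.88) and Asb13 (0.87). Of these, all 5 were within 0.2 log2 between the groups. For Mfng they were Arih2, Anapc1, Cep63, Kdm3b and Ilf2, at 0.92 to 0.95. For Lfng they were Pxn, Pcgf1, Zxdc, Tspan32 and Dmac1, at 0.91 to 0.93, and here control replicate 2 set much of the likeness. Without it the r fell to 0.37 for Pxn and 0.15 for Zxdc, and was 0.72 for Pcgf1, 0.67 for Tspan32 and 0.89 for Dmac1. With so many genes and 10 arrays, such r values are a description.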

How the data were processed

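The authors deposited 1 log2 value per probe set and array (33649 probe sets, 1.08 to 12.47). The submitters' processing notes name RMA and Partek 6.6 and do not say what each did. RMA in general equalizes array distributions and shrinks folds of dim genes. Arrays have no read depth, and their number limits precision. The table held 0 columns of no sample.

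Symbols came from the platform annotation. Only probe sets with 1 symbol were used, the brightest per gene. Both groups entered 1 limma fit (version 3.58.1, under R 4.3.3; lmFit, eBayes, Benjamini-Hochberg over 22180 genes, threshold 0.05, no covariate) and, per member and per difference from Rfng, with a two-sided exact permutation test over 252 splits. Intervals of differences from Rfng use the pooled SD of the 2 groups and Student's t distribution. On simulated data limma recovered 26% of genes changed by 0.5 log2 and 82% of those changed by 1, and called 15 unchanged genes. The simulation also held 50 genes each changed by 2 and by 3 log2, which eases the adjusted threshold, and noise independent between genes. In the fit of the arrays 2 of 22180 genes passed, so these shares are not the power on these arrays. Alternatives were arrays left out, a possible batch, normalizations, a block, array weights, trended eBayes, a level filter and covariates. Members and lists were chosen with earlier results of these data known. Genes named are the members, the pathway lists, 3 neighbours of Rfng on either side and the 5 genes most like each fringe. Replicate numbers do not pair the samples, with correlations of deviations from -0.23 to 0.06. The promoter sequence came from RefSeq (GRCm38.p6).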

Additional observations from a re-analysis of the deposited data

Results flagged for a closer look

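Of 134 groups of 5 arrays tested, 13 held 1 array whose gap to its nearest neighbour exceeded 0.71 of the group's range, where chance gives about 1 in 20. Of these, 9 were Jag1+/-Rfng+/- replicate 5 and 4 were other arrays.

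For Lfng, control replicate 2 read 7.01, against 5.65 to 5.94 on the other controls. Jag1+/-Rfng+/- replicate 5 read 6.33 for Lfng, against 5.95 to 6.04 on the others of its group. This array was also high for Poglut2 (6.37) and Gxylt2 (3.11, below background) and low for the sugar supply genes Pgm3 (4.68), Slc35d1 (6.31) and Slc35d2 (4.29). It was low for the receptor gene Notch2 (6.39) and for Fasn, a neighbour of Rfng (6.28), and its erythroid markers averaged 7.68, against 4.87 to 5.36 on the others. The part of erythroid content in these readings was not tested. Gmds was low on control replicate 5 (3.44), and Rac3 was high on control replicate 5 (4.79) and on Jag1+/-Rfng+/- replicate 1 (4.99).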

How the results depend on the processing

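Of the 5 members 0 passed limma's adjusted threshold in the fit reported or in any of 24 alternatives, in which the lowest adjusted p were 0.351 for Rfng, 0.764 for Lfng, 0.848 for Mfng, 0.765 for Pofut1 and 0.672 for Poglut1. The differences of Rfng, Pofut1 and Poglut1 kept their direction in all of them. The exact test of Rfng did not pass among the 7 arrays that share a sample-name number (-0.38) or without replicate 5 there (-0.41), where fewer samples raise the smallest possible p. In both settings the groups still did not overlap. Lfng, at 0.00 log2, turned negative in these 2 settings (-0.14 and -0.23), with equal array medians (-0.0099) and with array weights (-0.11), and Mfng in these 2 settings (-0.10 and -0.15); the cause was not tested. Leaving out single arrays gave -0.51 to -0.38 for Rfng, -0.094 to 0.25 for Lfng, -0.063 to 0.23 for Mfng, -0.21 to -0.01 for Pofut1 and -0.37 to -0.19 for Poglut1. For the differences from Rfng it gave 0.29 to 0.72 (Lfng), 0.32 to 0.71 (Mfng), 0.24 to 0.43 (Pofut1) and 0.07 to 0.30 (Poglut1). Without Jag1+/-Rfng+/- replicate 2, Pofut1 minus Rfng was 0.43 (exact permutation p = 0.0317). With both control replicate 2 and Jag1+/-Rfng+/- replicate 5 left out, chosen after seeing the data, Lfng differed by 0.18 and Lfng minus Rfng by 0.68 (exact permutation p = 0.0286 each).

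With the replicate number as a block, Rfng differed by -0.46 (limma adjusted p = 0.564), and the block changed no call of a member. Same-numbered arrays did not deviate together (0 of 5 pairs above 0.1), so the block has no basis in the design. The block moved the count of the 28 pathway genes at an unadjusted p under 0.05 from 1 to 4, none past the adjusted threshold. Each member has 1 probe set, so no other probe set could be set against it. Detection calls were not at hand, so the background threshold rests on olfactory receptor genes.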

Other observations

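Across the 10 arrays, 55 relations were computed between the 5 members and 9 cell type marker lists and among the members, on values centred on the group means, with a permutation test over all 14400 rearrangements within groups. The relation with the lowest Pearson p was that of Rfng with the lymphocyte markers (r = -0.67, permutation p = 0.0545, adjusted p = 0.935; rho = -0.71, permutation p = 0.0402, adjusted p = 0.982). It was -0.65 without the 2 arrays farthest from the median of the markers and -0.43 among the 7 arrays that share a sample-name number. Mfng with the endothelial markers gave r = 0.16 (permutation p = 0.692) and Lfng with the biliary markers r = 0.15 (permutation p = 0.755). The lowest Spearman p was that of Mfng with Pofut1 (rho = -0.76, permutation p = 0.0231, adjusted p = 0.982; r = -0.42, permutation p = 0.221, adjusted p = 0.935). Its r was -0.48 without the 2 arrays farthest from the median of Pofut1 and -0.48 among the 7 arrays. Before adjustment 0 of the 55 Pearson p and 2 of the 55 Spearman p, those printed, were under 0.05.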
